A study of Mus musculus with 4 samples.

Results

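Menin, the protein of the Men1 gene, and 9 genes that act with it or beside it in Trithorax group complexes were followed through 4 RNA sequencing libraries of mouse Th2 cells. The 10 genes were chosen by name: Men1, Psip1, Ash2l, Wdr5, Rbbp5, Dpy30, Hcfc1, Hcfc2, Setd1a and Ash1l. All 10 had a single line in each library, among 23283 gene symbols with a value in every library, and all 10 passed the minimum of 1 FPKM on average that 10973 symbols passed. FPKM divides the fragments of a gene by its transcript length and by the size of the library. Levels can thus be set side by side across genes and libraries, though ratios between libraries moved with the scaling, as described below.

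The cells were Th2 cells, helper T cells that make IL-4, IL-5 and IL-13, grown from splenic CD4 T cells of C57BL/6 mice. There were 4 groups of 1 library each: Menin knockout (KO) and wild type (WT) cells after 5 days in Th2 conditions (15 ng/ml of IL-2 and 10 ng/ml of IL-4), and KO and WT cells in a culture named as 3 weeks. The longer culture went on from the same 5 days through 2 days without added cytokines to 5 days of restimulation, in which immobilized antibodies engaged the T cell receptor while IL-2 was supplied and IL-4 was blocked by antibody. Those steps come to less than 3 weeks. The sources used here do not give what filled the rest, how Menin was deleted and in which cells, or how many mice gave cells to each library. With 1 library per group no difference has a replicate check, and none was tested. The 95% intervals below are counting intervals, made from reads inferred from the FPKM values, and cover counting error only.

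Trithorax group complexes keep genes active, mainly by placing methyl groups on lysine 4 of histone H3 (H3K4). The methyl groups are placed by SET domain enzymes of the MLL and SET1 families, which work poorly alone and are stimulated by a shared core of WDR5, RBBP5, ASH2L and DPY30. Menin is a scaffold found in the complexes of KMT2A (MLL1) and KMT2B. It joins them to LEDGF, the chromatin-binding protein of the Psip1 gene. In T cells, menin is known for keeping helper cell identity and for restraining senescence.

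Inferred depth was between 20.7 and 23.5 M reads (M, mega) per library. The libraries carried the T cell genes named by the labels: Cd4 stood at 147 FPKM in KO 5-day, 164 in WT 5-day, 307 in KO 3-week and 212 in WT 3-week, and Cd3e at 240, 203, 318 and 206 FPKM in the same libraries. The 6 T cell and Th2 markers summed to 1186 FPKM in KO and 969 FPKM in WT at 5 days, and to 1930 and 1066 FPKM at 3 weeks, mostly Cd3 and Cd4 genes. The Th2 genes among them lay the other way at 3 weeks, Il4 at 6.40 FPKM in KO and 21.9 FPKM in WT and Gata3 at 45.9 and 93.8 FPKM, and at 5 days Il4 stood at 9.71 FPKM in KO and 6.41 FPKM in WT. The 2 NK cell markers Klrb1c and Ncr1 summed to 1.75 FPKM in KO and 0.119 FPKM in WT at 5 days, and to 2.07 and 0.0174 FPKM at 3 weeks. The 7 myeloid markers summed to 2.89 FPKM in KO and 0.768 FPKM in WT at 5 days, and to 7.40 and 0.294 FPKM at 3 weeks (4.75 FPKM of the KO sum at 3 weeks was Itgam, an integrin gene). Cd14 stood at 2.03 FPKM in KO and 0.0978 FPKM in WT at 3 weeks, and Emr1, the F4/80 gene, at 1.82 FPKM in KO and 0.440 FPKM in WT at 5 days. S100a9 was listed at 0 in every library, Csf1r at 0 in both 3-week libraries and Lyz2 at 0 in KO 3-week. Ncr1 was listed at 0 in both WT libraries. The 5 B cell markers summed to at most 2.72 FPKM, the 2 CD8 markers to at most 5.70 FPKM and the 3 red blood cell markers to at most 12.1 FPKM in any library. Pax5 was listed at 0 in every library. The part of these markers in the differences below was not tested. In bulk RNA, fewer cells of a type and less RNA per cell cannot be told apart.

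The knockout was visible in Men1 itself (chromosome 19, 6334979 to 6340891, plus strand, GRCm38). Men1 stood at 10.3 FPKM in KO and 32.8 FPKM in WT cells after 5 days, and at 5.88 FPKM in KO and 25.4 FPKM in WT cells at 3 weeks. Both KO libraries were low, and the lower of the WT values was still above the higher of the KO values. KO cells held 31.5% of the WT level at 5 days (counting interval 28.6% to 34.6%) and 23.1% at 3 weeks (20.4% to 26.2%). On the log2(FPKM + 1) scale the ratios were -1.58 and -1.94, and 0.437% and 1.20% of compared genes had a lower ratio. In WT cells Men1 was the fourth of the 10 genes by level at 5 days and the sixth at 3 weeks. In KO cells it was the eighth at 5 days and the last at 3 weeks, where its counting interval overlapped that of the next gene, Ash1l. Each value covers the whole gene, so the position of the reads that remained in KO is not known.

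**Figure D1:**
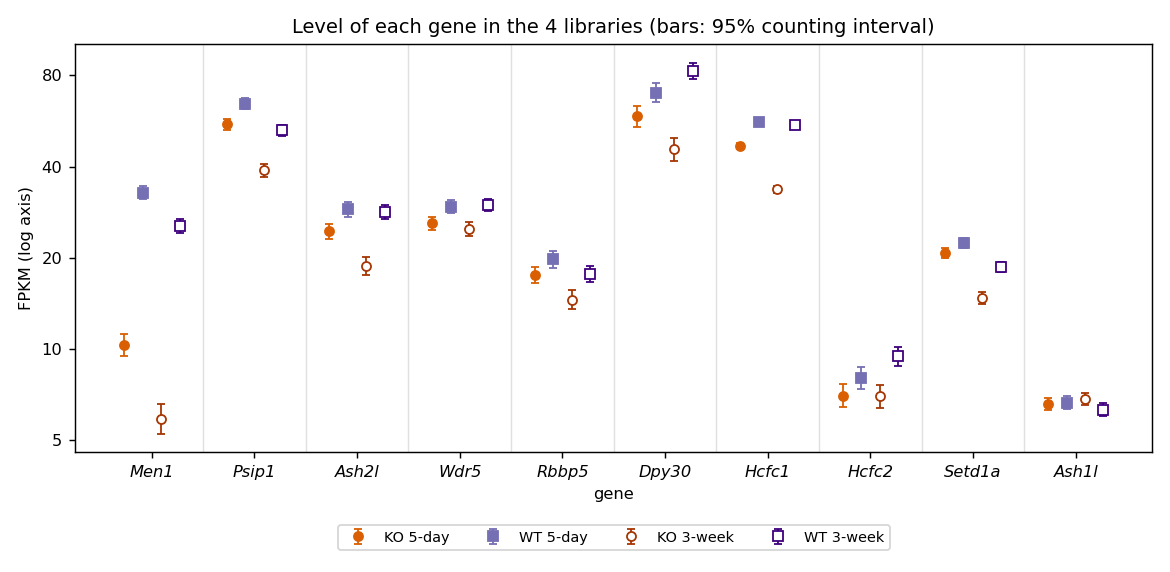
FPKM (log axis) of the 10 genes in KO and WT libraries of the 5-day culture (filled symbols) and the 3-week culture (open symbols), with 95% counting intervals. Men1 spans 5.88 to 32.8 FPKM, and the KO 3-week library is the lowest of the 4 for every gene except Ash1l.

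The genes beside Men1 on chromosome 19 gave a local comparison. Map4k2, a kinase gene that starts 244 bases after the end of Men1, stood at 94.8 FPKM in KO and 92.6 FPKM in WT at 5 days, and at 66.2 and 66.6 FPKM at 3 weeks. That was 102% (99.5% to 106%) and 99.4% (96.0% to 103%) of WT. Sf1, a splicing factor gene further on, was at 86.4% of WT at 5 days and 67.7% at 3 weeks. On the other side, Cdc42bpg was at 115% and 51.0% of WT, and Ehd1, a gene of membrane recycling, at 116% and 133%. The 4 neighbours thus lay on both sides of WT, and each was closer to WT than Men1 was.

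**Figure D2:**
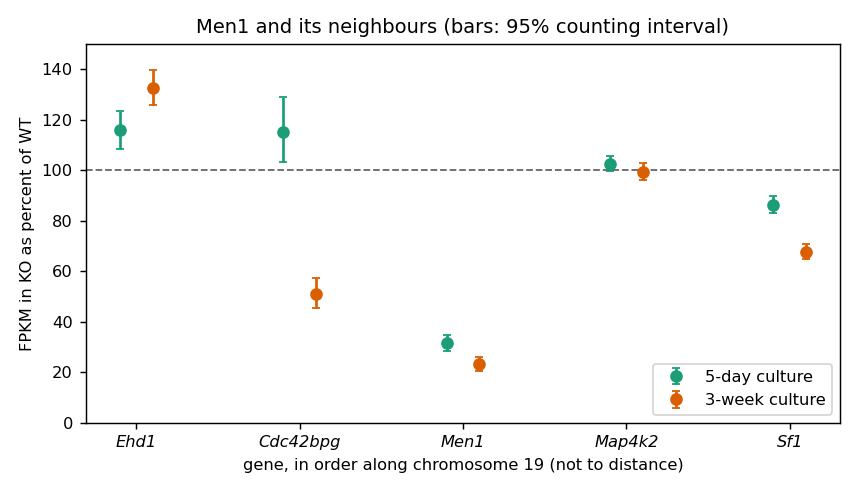
FPKM in KO as percent of WT at both culture times for Men1 and the 2 nearest protein-coding genes with a value on each side, in chromosomal order, with 95% counting intervals. Men1 is at 31.5% and 23.1%, while Map4k2 next to it is at 102% and 99.4%.

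Psip1 (chromosome 4, 83455680 to 83486459, minus strand) encodes LEDGF, whose PWWP domain binds methylated H3K36 and whose integrase-binding domain binds the menin and MLL pair. It stood at 55.2 FPKM in KO and 64.5 FPKM in WT at 5 days, and at 38.9 FPKM in KO and 52.7 FPKM in WT at 3 weeks. Each KO library was lower than the WT library of its time, and the KO 3-week library was the lowest. The KO level was 85.5% of WT at 5 days (80.6% to 90.6%) and 73.7% at 3 weeks (69.0% to 78.8%). Psip1 outnumbered Men1 by 5.34 to 1 in KO and 1.97 to 1 in WT at 5 days, and by 6.61 to 1 in KO and 2.07 to 1 in WT at 3 weeks, as ratios of FPKM. The gene shares 483 of its 5082 exonic bases with Snapc3 on the other strand. The sources used here do not say whether reads were counted by strand, so this and the overlaps below make the values uncertain. Snapc3 stood at 10.3 FPKM in KO and 11.5 in WT at 5 days, and at 9.61 and 13.8 FPKM at 3 weeks.

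The core subunits differed among themselves. Dpy30 (chromosome 17, 74299474 to 74323944, minus strand) encodes the small subunit that binds ASH2L and raises the activity of the core. It was the most abundant of the 10 genes in every library, at 58.6 FPKM in KO and 70.2 FPKM in WT at 5 days, and at 45.6 FPKM in KO and 82.8 FPKM in WT at 3 weeks. At 5 days its counting interval overlapped that of Psip1 in both genotypes, so the order of these genes is uncertain there. KO cells held 83.5% of the WT level of Dpy30 at 5 days (75.0% to 92.9%) and 55.0% at 3 weeks (49.3% to 61.5%). The 3-week ratio was -0.85 on the log2(FPKM + 1) scale, the lowest of the 9 partner genes, and 11.7% of compared genes had a lower one.

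Ash2l (chromosome 8, 25815996 to 25847694, minus strand) encodes the subunit that, with RBBP5, contacts the SET domain. It stood at 24.5 FPKM in KO and 28.9 FPKM in WT at 5 days, and at 18.7 FPKM in KO and 28.4 FPKM in WT at 3 weeks. The WT libraries were nearly level and the KO libraries lay below both. Relative to WT, Ash2l stood at 84.7% in KO at 5 days (78.2% to 91.8%) and 66.1% at 3 weeks (60.6% to 72.0%). The ratio of Dpy30 to Ash2l FPKM was 2.40 in KO and 2.43 in WT at 5 days, and 2.43 in KO and 2.92 in WT at 3 weeks.

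Wdr5 (chromosome 2, 27515157 to 27536535, plus strand) encodes a WD40 repeat protein that holds the enzymes' WIN motif. It stood at 26.0 FPKM in KO and 29.4 FPKM in WT at 5 days, and at 24.8 FPKM in KO and 29.8 FPKM in WT at 3 weeks. Its range over the 4 libraries was 1.20-fold. Wdr5 in KO was at 88.3% of WT at 5 days (82.4% to 94.7%) and 83.4% at 3 weeks (77.8% to 89.4%). These intervals overlap, so a change of the Wdr5 ratio between culture times was not detectable at this depth.

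Rbbp5 (chromosome 1, 132477365 to 132505659, plus strand) encodes the subunit that bridges WDR5 and ASH2L. It stood at 17.5 FPKM in KO and 19.7 FPKM in WT at 5 days, and at 14.5 FPKM in KO and 17.7 FPKM in WT at 3 weeks. This was 88.9% of WT at 5 days (81.3% to 97.2%) and 82.0% at 3 weeks (74.7% to 90.3%), again with overlapping intervals. Over the 4 core genes together, FPKM summed to 127 in KO and 148 in WT at 5 days, and to 104 in KO and 159 in WT at 3 weeks, 85.4% and 65.3% of WT. Dpy30 made up much of that sum, and without it the core stood at 87.2% and 76.6% of WT.

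**Figure D3:**
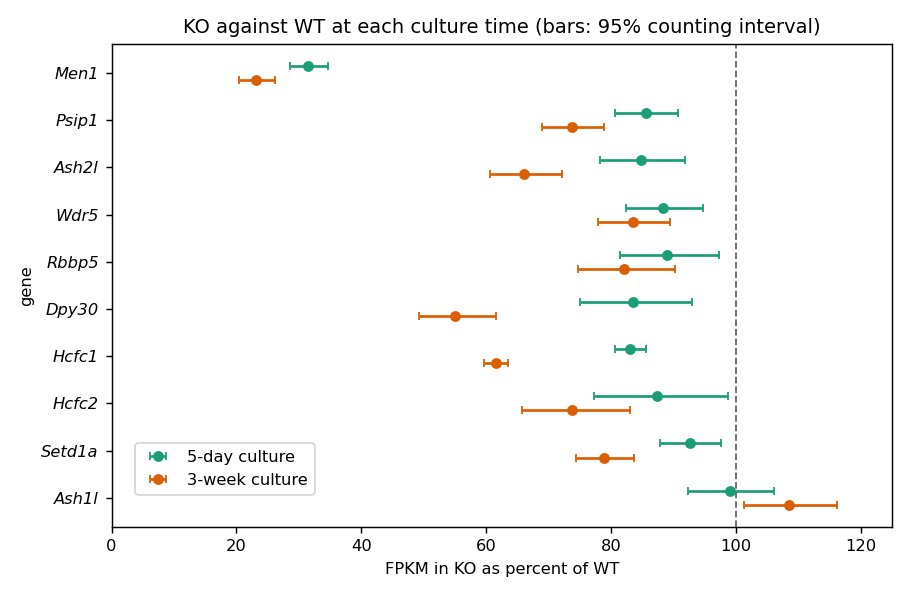
FPKM in KO as percent of WT for each of the 10 genes at 5 days and at 3 weeks, with 95% counting intervals; the dashed line marks equal levels. Without rescaling, the intervals of the 2 culture times do not overlap for Men1, Psip1, Ash2l, Dpy30, Hcfc1 and Setd1a. These genes are all further below WT at 3 weeks. How many of all compared genes meet the same rule was not counted. Ratios spread more widely at 3 weeks in general, with 3980 compared genes at least 1.5-fold apart against 1063 at 5 days.

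HCF-1 and HCF-2, the products of Hcfc1 and Hcfc2, are related host cell factors that tether histone-modifying complexes to transcription factors. Hcfc1 (chromosome X, 73942792 to 73966357, minus strand) stood at 46.8 FPKM in KO and 56.3 FPKM in WT at 5 days, and at 33.7 FPKM in KO and 54.7 FPKM in WT at 3 weeks. The WT libraries were close to each other and both KO libraries lay below them. Hcfc1 in KO was at 83.1% of WT at 5 days (80.7% to 85.6%) and 61.5% at 3 weeks (59.6% to 63.5%). Hcfc1 had the most inferred reads of the 10 genes, up to 10306 in WT 3-week, and therefore the narrowest intervals.

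Hcfc2 (chromosome 10, 82696160 to 82742428, plus strand) was far less abundant, at 6.997 FPKM in KO and 8.02 FPKM in WT at 5 days, and at 6.96 FPKM in KO and 9.43 FPKM in WT at 3 weeks. The KO libraries were level with each other, and the WT 3-week library was the highest. This was 87.2% of WT at 5 days (77.2% to 98.7%) and 73.8% at 3 weeks (65.7% to 83.0%). Hcfc1 exceeded Hcfc2 by 6.68-fold in KO and 7.02-fold in WT at 5 days, and by 4.84-fold in KO and 5.80-fold in WT at 3 weeks.

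Setd1a (chromosome 7, 127776670 to 127800122, plus strand) encodes the catalytic subunit of a SET1 complex, which places much of the trimethyl mark at active promoters. It stood at 20.7 FPKM in KO and 22.4 FPKM in WT at 5 days, and at 14.7 FPKM in KO and 18.7 FPKM in WT at 3 weeks. Both longer cultures lay below both shorter ones. The KO level was 92.5% of WT at 5 days (87.8% to 97.5%) and 78.9% at 3 weeks (74.3% to 83.7%). In GENCODE M21 the gene shares 3523 of its 6795 exonic bases with Gm49388 on the same strand, a gene with no value in the data analysed here.

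Ash1l (chromosome 3, 88950622 to 89079375, plus strand) encodes a SET domain enzyme that acts on H3K36 and belongs to the Trithorax group by its fly relative. It stood at 6.56 FPKM in KO and 6.63 FPKM in WT at 5 days, and at 6.82 FPKM in KO and 6.29 FPKM in WT at 3 weeks. The 4 libraries lay within 1.08-fold of each other. The KO level was 98.9% of WT at 5 days (92.3% to 106%) and 108% at 3 weeks (101% to 116%). Of the 10 genes, Ash1l was the 1 above WT at 3 weeks, and at 5 days its interval included equal levels. Its exons share 352 bases with Dap3 on the other strand, and Dap3 stood at 11.7 FPKM in KO and 15.6 FPKM in WT at 5 days and at 6.50 and 14.6 FPKM at 3 weeks.

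Read together, 8 of the 9 partner genes lay below WT by small amounts at 5 days and by larger ones at 3 weeks. For Wdr5, Rbbp5 and Hcfc2 among them the intervals of the 2 times overlapped. The exception was Ash1l, near WT at 5 days and at 108% of WT at 3 weeks. A gene was counted as apart where its log2(FPKM + 1) values differed by at least 1.5-fold. At 5 days Men1 was the 1 member of 10 counted as lower, where 2.71% of compared genes were lower, and 0 members were counted as higher, where 6.98% were. At 3 weeks 3 members were lower, Men1, Dpy30 and Hcfc1, where 20.8% of compared genes were lower, and 0 were higher, where 15.5% were. Ash2l lay just short of the 1.5-fold line at 3 weeks, with a log2 ratio of -0.57. Of the 9 partners 2 were past the line, so their share was near that of all compared genes. By the stricter line of 2-fold Men1 was the 1 member past it at each time, where 0.820% and 8.19% of compared genes were lower.

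The direction was more uniform than the size. Below 0 lay 9 of 9 partners at 5 days, where 53.6% of compared genes did, and 8 of 9 at 3 weeks, where 55.8% did. The median log2 ratio of the 9 partners was -0.17 at 5 days and -0.39 at 3 weeks, and that of all compared genes was -0.02 and -0.08. Among genes with at least 5 FPKM on average, as all the partners had, it was -0.04 and -0.12. The counting interval lay wholly below equal levels for 8 of 9 partners at 5 days, where this held for 30.5% of compared genes, and for 8 of 9 at 3 weeks, where it held for 45.0%. It lay wholly above equal levels for 0 of 9 at 5 days, where this held for 25.8% of compared genes, and for 1 of 9, Ash1l, at 3 weeks, where it held for 33.3%. Between 481 and 10306 reads stood behind each partner value, and intervals as narrow as these leave out equal levels at small differences. Dividing by the median ratio of all genes (median-of-ratios scaling) left 9 of the 10 members below 0 at each time, with Ash1l above 0 at both.

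**Figure D4:**
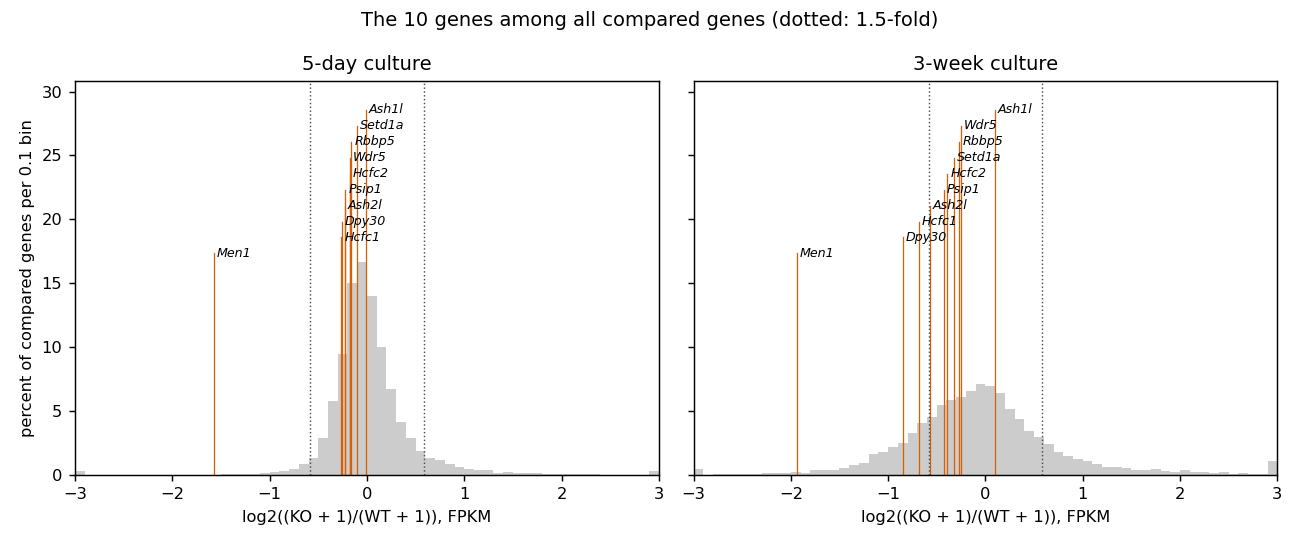
Distribution of the log2((KO + 1)/(WT + 1)) ratio of FPKM over the 10973 compared genes in bins of 0.1, as percent of genes, with the 10 genes marked; values beyond 3 in size are in the end bins. The whole distribution is wider at 3 weeks, and the partners lie mostly left of its centre at both times.

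The genotype ratio itself was lower at 3 weeks than at 5 days in 9 of the 10 genes, and in 6303 of the 10973 compared genes. For Wdr5 this turned under upper-quartile scaling, with log2 ratios of -0.14 at 3 weeks and -0.15 at 5 days. The difference of the log2 ratios was -0.59 for Dpy30, -0.42 for Hcfc1, -0.36 for Men1 and -0.34 for Ash2l. It was between -0.22 and -0.08 for Hcfc2, Setd1a, Psip1, Rbbp5 and Wdr5, and 0.11 for Ash1l. The median over the 10 genes was -0.22, and over all compared genes -0.08. These differences were not tested.

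Proliferation genes were lower in KO at 3 weeks as well. The 12 listed cell cycle genes, among them Mki67, Top2a and Pcna, summed to 1586 FPKM in KO and 1828 FPKM in WT at 5 days, and to 742 FPKM in KO and 1546 FPKM in WT at 3 weeks. At 3 weeks 12 of 12 were at least 1.5-fold lower in KO, where 20.8% of compared genes were. At 5 days 0 of 12 were, where 2.71% of compared genes were. The 12 genes had a median log2 ratio of -1.01 at 3 weeks and -0.26 at 5 days. Their part in the values of Men1's partners was not tested.

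The culture times were also compared within each genotype; these comparisons reuse the same 4 libraries. In KO cells Men1 was the 1 member at least 1.5-fold lower in the longer culture, with 57.0% of its 5-day level (49.4% to 65.5%), where 12.8% of compared genes were lower, and 0 members were higher, where 9.50% were. Setd1a was at 71.1% (67.1% to 75.4%), Psip1 at 70.5% (66.0% to 75.3%) and Hcfc1 at 72.0% (69.6% to 74.4%). In WT cells 0 of the 10 were at least 1.5-fold lower, where 6.67% of compared genes were, and 0 were higher, where 7.34% were. There Dpy30 was at 118% (107% to 130%) and Hcfc2 at 118% (105% to 132%) of the 5-day level, and Men1 at 77.5% (72.2% to 83.2%). Setd1a and Psip1 were lower in WT as well, at 83.4% (79.1% to 88.0%) and 81.7% (77.1% to 86.6%). Hcfc1 was at 97.2% (94.5% to 100%) in WT. Wdr5 was close to its 5-day level in both genotypes, at 95.5% (88.9% to 103%) in KO and 101% (94.6% to 108%) in WT.

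Promoter sequences are shown for the partner genes that were furthest below WT at 3 weeks, Dpy30 and Hcfc1, beside a relative or partner that was closer to WT, and for Setd1a, whose window holds a motif tied to HCF-1. Of the 10 genes 7 had a RefSeq window on GRCm38.p6, from 250 bases before the start site to 50 after it, and Psip1, Ash2l and Ash1l had none. Where a gene had several windows, the one with the most CG pairs was taken. The windows of Dpy30, Hcfc2 and Setd1a lie inside the gene spans given above. They are thus at inner start sites and not at the outer end of the gene. Capitals mark 4 motifs that were chosen after the windows had been read and were searched on both strands: AAGATGGC, a core of the YY1 motif, CCGGAAG, an ETS factor motif, the NRF1 motif, matched as GCGCAGGCGC in Dpy30 and GCGCACGCGC in Wdr5 with its sixth letter free, and a core of the motif bound by ZNF143 and THAP11, matched as CTACAACTCCC in Setd1a with its seventh letter free. THAP11 is known to bind HCF-1. No marked motif overlaps another.
Dpy30, chr17:74316162-74316461, minus strand: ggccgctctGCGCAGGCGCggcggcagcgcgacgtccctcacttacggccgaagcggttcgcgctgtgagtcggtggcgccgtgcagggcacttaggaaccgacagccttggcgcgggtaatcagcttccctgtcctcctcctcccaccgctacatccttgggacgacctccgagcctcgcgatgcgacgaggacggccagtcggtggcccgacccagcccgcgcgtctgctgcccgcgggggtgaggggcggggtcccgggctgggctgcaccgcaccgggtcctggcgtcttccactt
Wdr5, chr2:27514897-27515196, plus strand: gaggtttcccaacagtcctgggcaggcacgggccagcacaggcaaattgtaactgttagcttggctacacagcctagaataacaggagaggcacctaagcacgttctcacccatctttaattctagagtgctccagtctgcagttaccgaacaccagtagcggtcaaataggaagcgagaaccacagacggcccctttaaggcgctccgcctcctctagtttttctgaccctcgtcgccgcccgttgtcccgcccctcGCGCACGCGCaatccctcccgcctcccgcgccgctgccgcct
Hcfc1, chrX:73966308-73966607, minus strand: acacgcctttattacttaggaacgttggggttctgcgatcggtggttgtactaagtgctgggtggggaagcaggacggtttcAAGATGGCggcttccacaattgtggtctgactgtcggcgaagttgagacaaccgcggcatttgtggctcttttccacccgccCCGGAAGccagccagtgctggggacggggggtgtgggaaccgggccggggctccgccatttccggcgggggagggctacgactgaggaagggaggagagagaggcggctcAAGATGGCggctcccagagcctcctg
Hcfc2, chr10:82698864-82699163, plus strand: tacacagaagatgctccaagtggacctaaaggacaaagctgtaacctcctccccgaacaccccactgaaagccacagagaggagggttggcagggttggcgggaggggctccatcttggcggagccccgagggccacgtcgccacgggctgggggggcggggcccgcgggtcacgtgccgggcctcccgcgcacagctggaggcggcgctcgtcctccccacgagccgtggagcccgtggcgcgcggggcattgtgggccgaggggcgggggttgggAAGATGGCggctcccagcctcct
Setd1a, chr7:127777139-127777438, plus strand: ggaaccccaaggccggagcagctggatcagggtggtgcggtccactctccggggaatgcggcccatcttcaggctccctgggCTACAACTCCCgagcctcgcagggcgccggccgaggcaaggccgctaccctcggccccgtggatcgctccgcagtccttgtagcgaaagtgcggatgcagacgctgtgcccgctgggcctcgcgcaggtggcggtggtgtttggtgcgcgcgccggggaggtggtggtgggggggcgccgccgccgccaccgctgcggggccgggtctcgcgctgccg

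Dpy30 and Wdr5 shared the NRF1 letters, which stood in 4.603% of the 32851 promoter windows. Their KO levels at 3 weeks were 55.0% and 83.4% of WT. Hcfc1 and Hcfc2 shared AAGATGGC shortly after the start site, and Hcfc1 held it upstream as well. It stood in 2.75% of windows. Their KO levels at 3 weeks were 61.5% and 73.8% of WT. The ETS letters of Hcfc1 stood in 8.86% of windows and the ZNF143 and THAP11 core of Setd1a in 1.01%. The windows of Men1 and Rbbp5 held none of the 4 motifs. These are matches of letters, and binding was not measured here.

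The genes of the MLL and SET1 families lay on both sides of WT at 3 weeks. Of 6 listed MLL and SET1 family genes other than Setd1a, 5 had a symbol, under older names: Mll1 (Kmt2a), Wbp7 (Kmt2b), Mll3 (Kmt2c), Mll2 (Kmt2d) and Mll5 (Kmt2e). RefSeq lists Mll2 as an older name of both Kmt2b and Kmt2d, and it was read as Kmt2d because Wbp7 had its own line. Mll5 is a distant relative that is not known to work with the core. Mll1, a partner of menin, stood at 25.1 FPKM in KO and 25.3 FPKM in WT at 5 days, and at 18.96 FPKM in KO and 23.0 FPKM in WT at 3 weeks. Wbp7, the other menin partner of the family, stood at 20.1 FPKM in KO and 21.5 FPKM in WT at 5 days, and at 18.03 FPKM in KO and 17.6 FPKM in WT at 3 weeks. Mll2 (Kmt2d) stood at 12.3 and 10.4 FPKM at 5 days and at 14.0 and 10.2 FPKM at 3 weeks in KO and WT. Mll3 stood at 8.35 FPKM in KO and 6.40 FPKM in WT at 3 weeks, and Mll5 at 34.5 and 25.7 FPKM. Of the 5, 0 were at least 1.5-fold apart at either time. Among all compared genes 2.71% were lower and 6.98% higher at 5 days, and 20.8% and 15.5% at 3 weeks. The median log2 ratio of the 5 was -0.01 at 5 days and 0.34 at 3 weeks. At 3 weeks 4 of 5 lay above 0, where 4822 of 10973 compared genes did. Wbp7 was among these 4, and its counting interval included equal levels (97.7% to 108% of WT). Summed with Setd1a, the 6 genes stood at 98.5% of WT at 5 days and 107% at 3 weeks, and without Mll5 at 98.2% and 97.5%. The 4 core genes stood at 85.4% and 65.3%, and without Dpy30 at 87.2% and 76.6%.

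The lists of related genes are to be read against all compared genes, of which 2.71% were at least 1.5-fold lower and 6.98% higher at 5 days (median -0.02), and 20.8% lower and 15.5% higher at 3 weeks (median -0.08). The balance at 3 weeks turned with the scaling, to 1849 genes lower and 1986 higher under median-of-ratios scaling (median 0.01) and 1820 lower and 2001 higher under upper-quartile scaling (median 0.01). Among 7 subunits that occur in some of these complexes, 0 were past 1.5-fold at 5 days and 1 at 3 weeks, with medians of -0.10 and -0.13. The lower one was Paxip1, which encodes the PTIP subunit of the KMT2C and KMT2D complexes, at 13.8 FPKM in KO and 24.1 FPKM in WT. Cxxc1, whose product brings SET1 complexes to CpG islands, stood at 40.6 FPKM in KO and 40.9 FPKM in WT at 3 weeks. Wdr82, another SET1 complex subunit, stood at 26.3 FPKM in KO and 32.0 FPKM in WT. Of 5 H3K4 demethylase genes 1 was at least 1.5-fold higher at 3 weeks, Kdm5b, at 5.98 FPKM in KO and 3.20 FPKM in WT, and 0 were at 5 days.

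Elongation factors that act with MLL proteins held more genes below WT. Of 16 listed, 6 were at least 1.5-fold lower at 3 weeks and 0 higher (median -0.43), and 0 were apart at 5 days (median -0.08). Dot1l, the H3K79 methyltransferase gene, stood at 12.2 FPKM in KO and 18.5 FPKM in WT at 5 days, and at 7.66 and 17.2 FPKM at 3 weeks. Mllt3 and Mllt1, which encode readers of acylated histones, stood at 8.02 and 11.4 FPKM in KO 3-week, against 18.6 and 23.0 FPKM in WT 3-week. Leo1 and Cdc73, subunits of the PAF1 complex, stood at 10.6 and 11.2 FPKM in KO 3-week, against 18.7 and 18.5 FPKM in WT 3-week. The other listed genes of that complex, Paf1, Ctr9 and Rtf1, were lower but short of 1.5-fold. They stood at 39.5, 14.0 and 24.5 FPKM in KO 3-week, against 44.4, 15.5 and 33.2 FPKM in WT 3-week. Of the 16 genes, 12 had counting intervals wholly below WT at 3 weeks, where 45.0% of compared genes did. Wholly above it lay 3, where 33.3% of compared genes did. The higher ones were Mllt6, Aff1 and Ell, with Ell at 29.7 FPKM in KO and 20.7 FPKM in WT.

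Transcription factors known to bind menin ranged widely. Of 10 listed, 4 were at least 1.5-fold lower and 1 higher at 3 weeks (median -0.15), and 1 was lower at 5 days (median 0.00). Myb, which recruits menin and MLL in blood cells, stood at 73.7 FPKM in KO and 103 FPKM in WT at 5 days, and at 10.5 FPKM in KO and 65.2 FPKM in WT at 3 weeks. Myc stood at 20.3 FPKM in KO and 38.4 FPKM in WT at 5 days, and at 14.7 and 75.8 FPKM at 3 weeks. Smad3, a mediator of TGF-beta signals, stood at 11.3 FPKM in KO and 22.5 FPKM in WT at 3 weeks. Jund, the AP-1 gene whose product was the first known menin partner, stood at 87.4 FPKM in KO and 67.8 FPKM in WT at 3 weeks, short of 1.5-fold. Ctnnb1, the beta-catenin gene, was the higher one, at 105 FPKM in KO and 64.8 FPKM in WT.

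Of 9 HDGF family genes and LEDGF partners, 4 were at least 1.5-fold lower and 0 higher at 3 weeks (median -0.51), and 1 was lower at 5 days (median -0.16). Hdgf, the founding gene of the family, stood at 86.4 FPKM in KO and 172 FPKM in WT at 3 weeks, and Cdca7l, a partner of the integrase-binding domain, at 9.27 and 21.1 FPKM. The other members past the line at 3 weeks, Cdc7 and Dbf4, encode a kinase and its activator that fire DNA replication. Of 11 genes, HCF-1 partners listed together with the protease gene Tasp1, 2 were lower and 0 higher at 3 weeks (median -0.13). These were Tasp1, whose product cleaves MLL proteins, at 4.74 FPKM in KO and 11.6 FPKM in WT, and E2f4 at 75.6 and 116 FPKM. Ogt, whose product glycosylates and cleaves HCF-1, stood at 58.7 FPKM in KO and 43.9 FPKM in WT. Of 2 partners of ASH1L, Rbbp4 was past the line at 3 weeks, at 24.7 FPKM in KO and 40.3 FPKM in WT. Of 15 SWI/SNF genes, the remodelling arm of the Trithorax group, 3 were lower and 0 higher at 3 weeks (median -0.30), among them Smarcc1 at 14.5 FPKM in KO and 32.5 FPKM in WT.

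**Figure D5:**
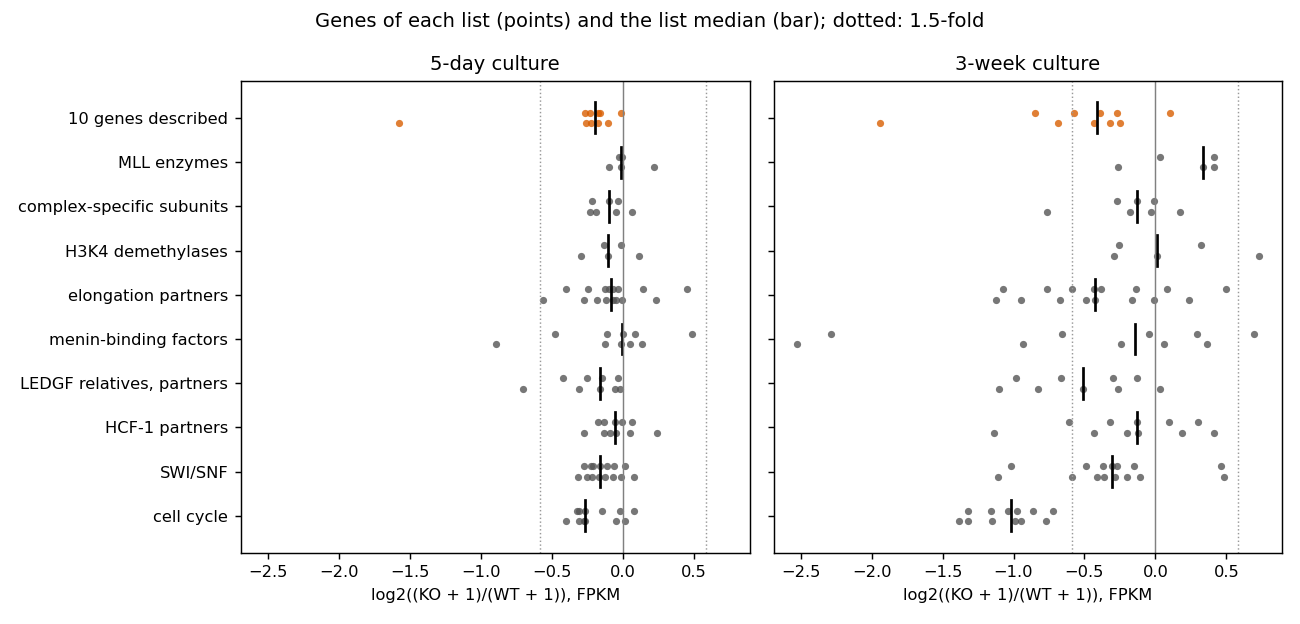
log2((KO + 1)/(WT + 1)) of FPKM for the compared genes of each list (points) with the list median (bar), at 5 days and 3 weeks; dotted lines mark 1.5-fold. The MLL enzymes have a median of 0.34 at 3 weeks, the 10 genes described one of -0.41 and the cell cycle genes one of -1.01. The row of HCF-1 partners also holds the protease gene Tasp1.

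Of 8 genes known as menin or MLL targets, 5 were expressed above the minimum. At 3 weeks 1 was at least 1.5-fold lower and 1 higher (median -0.01), and at 5 days 1, Bach2, was lower and 0 higher (median -0.06). Gata3, the Th2 master regulator, was the lower one at 3 weeks. The higher one was the cell cycle inhibitor gene Cdkn1b, at 46.0 FPKM in KO and 25.2 FPKM in WT. Bach2 stood at 1.3 FPKM in KO and 2.96 FPKM in WT at 5 days, and at 0.384 and 0.712 FPKM at 3 weeks. The inhibitor genes Cdkn2a, at 49.7 FPKM in KO and 49.9 FPKM in WT, and Cdkn2c, at 17.6 and 16.6 FPKM, were close to WT at 3 weeks.

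Over the 4 libraries, the profile of Men1 was closest to those of 5 genes outside the complexes. Likeness was the Euclidean distance between log2(FPKM + 1) profiles centred on their mean, searched over 8136 other genes with at least 5 FPKM on average, and 4 points make it a weak measure. The nearest was Atrnl1, an attractin-like gene, at a distance of 0.48, with 2.23 FPKM in KO and 10.7 FPKM in WT at 5 days and 0.514 and 7.21 FPKM at 3 weeks. Cenpv (0.52), Gar1, a gene of small nucleolar RNA particles (0.57), Smyd5, a SET and MYND domain gene (0.57), and the neurofilament gene Nefh (0.60) followed. Of the 9 partners Dpy30 was the nearest, at rank 954 with a distance of 1.303, and Ash1l the farthest, at rank 4936 with 1.89.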

How the data were processed

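Per the labels' protocols, RNA of 4 libraries was extracted with TRIzol and prepared with TruSeq Stranded mRNA reagents. The authors deposited FPKM per gene symbol, made with Bowtie 0.12.8, TopHat 1.3.2 and Cufflinks 2.0.2 on mm10, per the submitters' processing notes. The unit is read from Cufflinks and the values. The sources used here do not give the annotation, strand use, read layout or filters. Each library held 23746 lines; 240 symbols on more than 1 line were summed, and 1 symbol with an error mark was left out.

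Ratios were log2((a + 1)/(b + 1)) over 10973 symbols with a mean of at least 1 FPKM, counted at 1.5-fold and 2-fold. No contrast was tested, as each group holds 1 library; a model with additive genotype and culture time has 1 residual degree of freedom and was not run. Depth was inferred from low FPKM of genes with 1 transcript in GENCODE M21, using the length less 200 bases: 59.2% to 61.6% of values under 5.5 reads lay within 0.05 of a whole read, against 10% for evenly spread values. Reads of a gene used its median basic transcript length, which 10863 compared symbols had. Intervals of a ratio are exact Clopper-Pearson intervals of a share, and those of a level exact Poisson intervals; both are approximate, since depth and isoform use are. The steps were also run on simulated reads, drawn with the same transcript lengths and the same subtraction of 200 bases. Such a run cannot check those settings or the spread between cultures. Python 3.11.15, SciPy 1.17.1 and pandas 2.3.3 were used.

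Members, gene lists and the rule for named genes (all members, listed genes, neighbours of Men1 and the 5 nearest profiles) were chosen with earlier results of these data known. Setd1b, Pagr1a and Kat8 were not analysed here, as no symbol matched. Pseudocounts, scalings, filters and the handling of repeated symbols were varied.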

Additional observations from a re-analysis of the deposited data

How the results depend on the processing

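No paired analysis was possible because the labels give no replicate numbers, and with 1 library per group no replicate could be left out. A fit of genotype with culture time as a block was not run. At a pseudocount of 5 the number of compared genes at least 1.5-fold apart was 479 in place of 1063 for KO against WT at 5 days, 2616 in place of 3980 at 3 weeks, 803 in place of 1537 for the longer against the shorter culture in WT and 1460 in place of 2443 in KO, since a larger pseudocount shrinks low genes. At that setting Men1 was no longer 1.5-fold lower in the longer KO culture, so that 0 members were counted. Requiring a mean of 5 FPKM left 670 genes apart at 5 days and 1021 between the WT cultures, among fewer genes. At a pseudocount of 0.1 the counts were 1423 at 5 days and 2022 between the WT cultures. The members apart at 3 weeks numbered between 2 and 4 over the alternatives, and the median difference of their genotype ratios was -0.13 under upper-quartile scaling, in place of -0.22. With median-of-ratios scaling Hcfc1 stood at -0.58 at 3 weeks and with upper-quartile scaling at -0.57, just short of 1.5-fold. Psip1 at 3 weeks stood at -0.32 under both scalings, in place of -0.43. Setd1a stood at -0.22 and -0.21, in place of -0.32. Whether the intervals of these genes at the 2 culture times stay apart under the scalings was not examined. Of single-gene values 15 moved by more than their counting error, and 0 called values reversed. Ash1l at 5 days changed sign, to 0.01 under median-of-ratios and 0.0036 under upper-quartile scaling. Over the pseudocounts, scalings and line handling the Men1 log2 ratio lay between -1.66 and -1.30 at 5 days and between -2.09 and -1.48 at 3 weeks. Among the partners, depth gave the relatively widest intervals to Hcfc2 and Dpy30, and the spread between cultures or mice is unknown.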
